A study of Mus musculus with 5 samples.

Results

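Cell cycle and DNA replication genes were followed in the livers of mice with hepatocyte-restricted overexpression of Fra-1, a member of the FOS family that acts as part of AP-1 transcription factors. The set holds 40 genes out of 21546 features tested: 13 of the G1 phase, 13 of DNA replication and 14 of mitosis. Members were matched by name, and their probes were found through the probe's transcript accession and a RefSeq gene table. All 40 had at least 1 probe, with 52 probes in total, and 8 genes had more than 1. A probe entered the test if at least 3 arrays showed it well above background in 1 channel or both, and 35 of the 40 genes had such a probe.

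Each of 4 Fra-1hep mice, of C57BL/6J background, gave a liver RNA sample that was labelled with Cy5 and hybridised on a 2-colour Agilent array against a Cy3-labelled pool of 5 C57BL/6J wt control mice. On 1 more array the dyes were exchanged, so that pooled Fra-1hep RNA carried Cy3 and the control pool Cy5. All animals, controls included, ate a high-fat diet with 45% of energy from fat from 4 weeks of age and were 26 to 28 weeks old. The promoter that drives Fra-1, the sex of the mice and the animals behind the Fra-1hep pool are not stated in the labels. A pool of the same 4 mice would add no animals.

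Values are log2 ratios of Fra-1hep over control, so that a negative value is lower in Fra-1hep liver. The fitted change is the genotype coefficient of limma, which weighs the swapped pool as much as the 4 mice together and takes out a dye term, and it is given ± its standard error (4 mice and 1 pool). A gene passed the test at a Benjamini-Hochberg adjusted p under 0.05 over all 21546 features. The control pool counts as 1 sample, so the spread among control mice is outside every test. All 4 mouse arrays carry Fra-1hep RNA in Cy5, so fits without the swapped array leave dye bias in their values. The swapped array differs from the mouse arrays in dye and in being a pool, and these cannot be told apart.

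Spots well above background made up 47.2% to 54.7% in the Fra-1hep channel and 47.7% to 61.5% in the control channel, highest on the array of mouse 1, which lay on another slide than the other 4. All 9 hepatocyte markers checked were above the filter, with a median change of 0.01. Of these, Tat fell by 0.58 (SE 0.18), Serpina1a rose by 0.29 ± 0.07 and 7 did not pass. Alb, Apob, Ttr and Serpina1a, named after their values were seen, were above 0 in all 4 mice and below 0 on the swapped array. Fosl1, which encodes Fra-1, had 1 probe near background, with its Fra-1hep channel above background on 0 of 5 arrays, so it gave no check of the labels. The number of arrays limits the precision, and the median standard error over named genes was 0.066 on the log2 scale.

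As background, a cell leaves G1 when D-type cyclins with Cdk4 or Cdk6, and then E-type cyclins with Cdk2, phosphorylate the retinoblastoma protein and free E2F factors. E2F factors in turn switch on genes for origin licensing and DNA synthesis, and a later programme of B-type cyclins, Cdk1 and kinases of the spindle carries the cell through mitosis. Adult hepatocytes are mostly quiescent, and Ccnd1 is well known as the cyclin that rises when they re-enter the cycle after partial removal of the liver.

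Of the 35 members tested, 13 fell, 2 rose and 20 did not pass. The share that fell was 37.1%, beside 15.4% of all features, and the share that rose was 5.71%, beside 11.2% of all features. The lower members had adjusted p-values from 0.0012 to 0.048. Of the members that passed, Ccnd1 alone had a fitted change of at least 2-fold. The size of the change of Cdk1 was not measured, because its Fra-1hep channel was not above background. E2f8 lay at -1.34 with the scanner software's processed signals. The roles differed in their counts: 6 of 12 G1 members, 5 of 12 replication members and 2 of 11 mitosis members fell. The mitosis share of 18.2% lay near the 15.4% of all features. Members that did not pass were not thereby shown to be unchanged. Coefficients were below 0 for 10 of 11 mitosis, 8 of 12 replication and 10 of 12 G1 members, beside 10950 of 21546 features. The median standard deviation of a member among mice was 0.196 for mitosis, 0.174 for replication and 0.171 for G1. The part of this spread and of dim probes in the mitosis count was not tested. Role medians were close to each other at -0.25 for G1, -0.18 for replication and -0.20 for mitosis, beside 0.00 over all features. This closeness depended on the processing. With processed signals the medians were -0.29 for G1, -0.17 for replication and -0.39 for mitosis, beside 0.02 over all features. Differences between the roles were not tested. Ratios were below 0 on all 5 arrays for 15 of the 35 tested members, beside 19.5% of all features. They were above 0 on all 5 for 2 of the 35, beside 16.1%. Features that passed in either direction made up 26.6%. In bulk liver RNA, fewer cells of a type and less RNA per cell cannot be told apart.

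**Figure D1:**
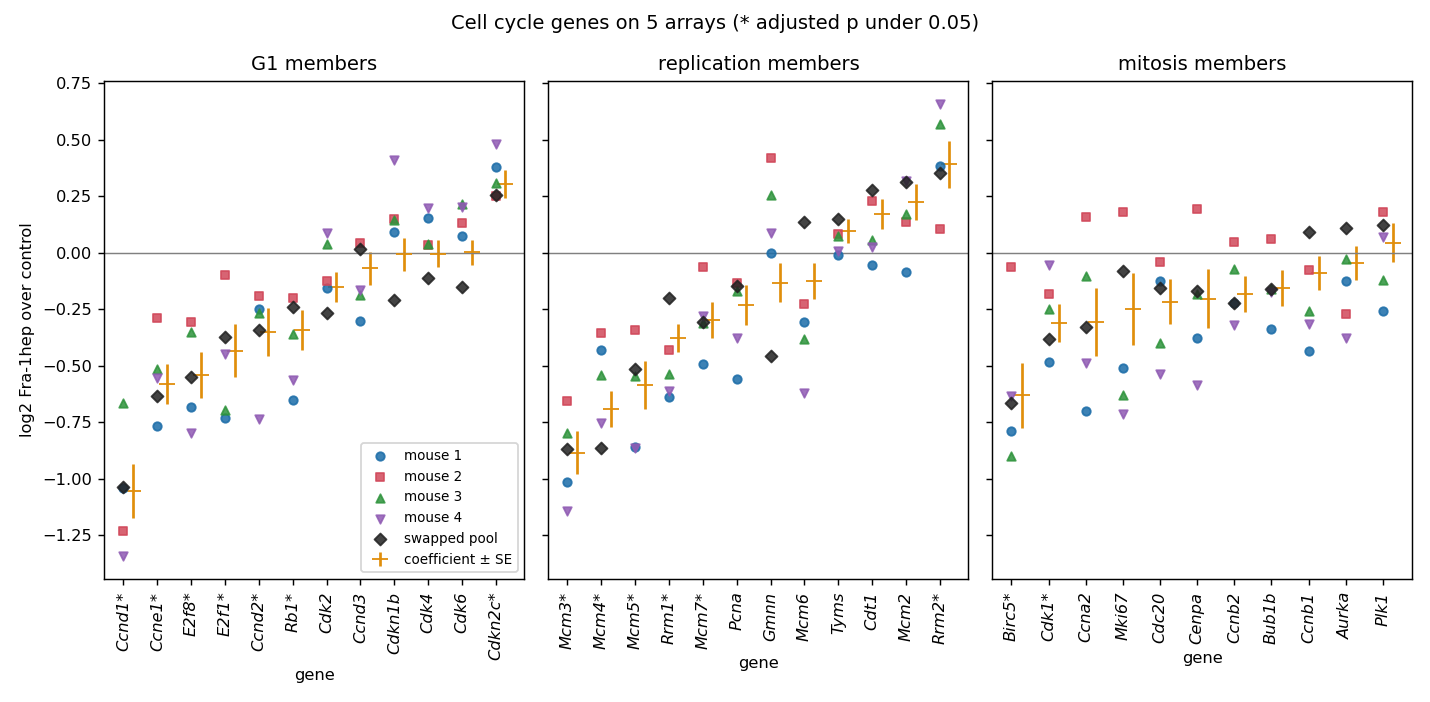
Log2 ratio of Fra-1hep over control (y axis) for the 35 tested members (x axis), split by role. Points are the 5 arrays, orange bars the genotype coefficient ± its standard error, and an asterisk marks an adjusted p under 0.05; Ccnd1 and Mcm3 lie lowest, and mouse 2 lies at or above 0 for several mitosis genes.

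Ccnd1, the main D-type cyclin of hepatocytes, fell on every array. Its ratios were -1.04, -1.23, -0.66 and -1.34 in mice 1 to 4, and -1.04 on the swapped array. Mouse 3 lay nearest to 0. The gene fell by 1.05 on the log2 scale (SE 0.12), or 2.08-fold, with a limma adjusted p of 0.0015, and it stayed past the threshold in all 16 alternative analyses run on it and in the test against a minimum change of 1.2-fold.

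The other D-type cyclins moved less. Ccnd2 had ratios of -0.25, -0.19, -0.27 and -0.73 in mice 1 to 4, and -0.34 on the swapped array, so that mouse 4 lay apart from the others. It fell by 0.35 (SE 0.10, limma adjusted p = 0.048). Without mouse 1 its adjusted p was 0.058 and without mouse 3 it was 0.074, and the range over 16 alternatives was 0.015 to 0.13. Ccnd3 lay at -0.07 ± 0.07 and did not pass, and its second probe lay at 0.14.

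Ccne1, the E-type cyclin that partners Cdk2 at the entry into S phase, had ratios of -0.77, -0.29, -0.51 and -0.55 in mice 1 to 4, and -0.63 on the swapped array. All arrays were below 0, with mouse 2 nearest to it. Ccne1 fell by 0.58 (SE 0.09, limma adjusted p = 0.0046). A second Ccne1 probe was near background. Ccne2, the other E-type cyclin gene, was above background on 0 arrays in either channel and was not tested.

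Their kinase partners did not pass. Cdk4 lay at 0.00 ± 0.06, with its other probes at -0.02 and 0.04. Cdk2 lay at -0.15 ± 0.07 (limma adjusted p = 0.14). Cdk6 lay at 0.00 ± 0.06, with its control channel above background on 2 of 5 arrays. The mouse ratios of Cdk6 ran from 0.07 to 0.22 and its swapped pool was at -0.15. Without the swapped array Cdk6 lay at 0.16 (limma adjusted p = 0.049).

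Among the inhibitors and gatekeepers of G1, Cdkn2c, which encodes the Cdk4 and Cdk6 inhibitor p18, was the only member of this role to rise. Its ratios were 0.38, 0.25, 0.31 and 0.48 in mice 1 to 4, and 0.26 on the swapped array, so every array was above 0. The rise was 0.31 ± 0.06 (1.24-fold, limma adjusted p = 0.013), and under median centring it lay at 0.26 with an adjusted p of 0.060 (range over 16 alternatives 0.0034 to 0.060). Cdkn1b, which encodes the inhibitor p27, lay at -0.01 ± 0.07, with mice from 0.09 to 0.41 and the swapped pool at -0.21.

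Rb1, which encodes the retinoblastoma protein, had ratios of -0.65, -0.20, -0.36 and -0.56 in mice 1 to 4, and -0.24 on the swapped array. All arrays were below 0. Rb1 fell by 0.34 (SE 0.09, limma adjusted p = 0.032). Its adjusted p was 0.054 without mouse 3 and 0.067 without mouse 4, with a range of 0.0060 to 0.098 over 16 alternatives.

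E2f1, an activator of S phase genes, had ratios of -0.73, -0.10, -0.69 and -0.45 in mice 1 to 4, and -0.37 on the swapped array. Mice 1 and 3 were lowest and mouse 2 was near 0. E2f1 fell by 0.43 (SE 0.12, limma adjusted p = 0.036). The adjusted p was 0.0503 without mouse 1, 0.067 without mouse 3 and 0.069 without mouse 4, and it ran from 0.0055 to 0.11 over 16 alternatives.

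E2f8, an atypical E2F that represses transcription and takes part in the polyploidy of hepatocytes, had ratios of -0.68, -0.31, -0.35 and -0.80 in mice 1 to 4, and -0.55 on the swapped array. It was low on every array, with its Fra-1hep channel above background on 4 of 5. E2f8 fell by 0.54 (SE 0.10, 1.46-fold, limma adjusted p = 0.010). It stayed past the threshold in all 15 alternatives that could be run on it, and its value grew with processed signals as given above.

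The replication members include the MCM subunits, Mcm2 to Mcm7, which form the ring-shaped helicase that is loaded on origins in G1. Of these 6 genes, Mcm3, Mcm4, Mcm5 and Mcm7 fell, and Mcm2 and Mcm6 did not pass. Mcm3 had ratios of -1.02, -0.65, -0.80 and -1.14 in mice 1 to 4, and -0.87 on the swapped array. It was the lowest of the MCM genes in each of the 4 mice, and in the swapped pool it lay beside Mcm4. Mcm3 fell by 0.88 (SE 0.09, 1.85-fold, limma adjusted p = 0.0012).

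Mcm4 had ratios of -0.43, -0.35, -0.54 and -0.75 in mice 1 to 4, and -0.86 on the swapped array. It fell by 0.69 (SE 0.08, 1.61-fold, limma adjusted p = 0.0017). Mcm5 had ratios of -0.86, -0.34, -0.54 and -0.87 in mice 1 to 4, and -0.51 on the swapped array. It fell by 0.58 (SE 0.11, limma adjusted p = 0.0090). For both genes all 5 arrays were below 0, and they stayed past the threshold, as Mcm3 did, in all 16 alternatives.

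Mcm7 had ratios of -0.49, -0.06, -0.31 and -0.28 in mice 1 to 4, and -0.31 on the swapped array, with mouse 2 near 0. It fell by 0.30 (SE 0.08, 1.23-fold, limma adjusted p = 0.036). Its adjusted p was 0.075 without mouse 3 and 0.073 without mouse 4, with a range of 0.014 to 0.11 over 16 alternatives.

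Mcm6 was the MCM gene on which the mouse arrays and the swapped array parted. Its ratios were -0.31, -0.23, -0.38 and -0.62 in mice 1 to 4, all below 0, and 0.13 on the swapped array. The coefficient was -0.12 ± 0.08 (limma adjusted p = 0.29), with a fitted dye term of -0.26. Without the swapped array, where dye bias is left in, Mcm6 lay at -0.38 (limma adjusted p = 0.0068). Mcm2 had ratios of -0.08, 0.14, 0.17 and 0.32 in mice 1 to 4, and 0.31 on the swapped array. It lay above 0 on 4 of 5 arrays, with a coefficient of 0.22 ± 0.08 that did not pass (limma adjusted p = 0.079). Without mouse 1 it lay at 0.26 with an adjusted p of 0.029, and with processed signals at 0.45 with 0.034.

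**Figure D2:**
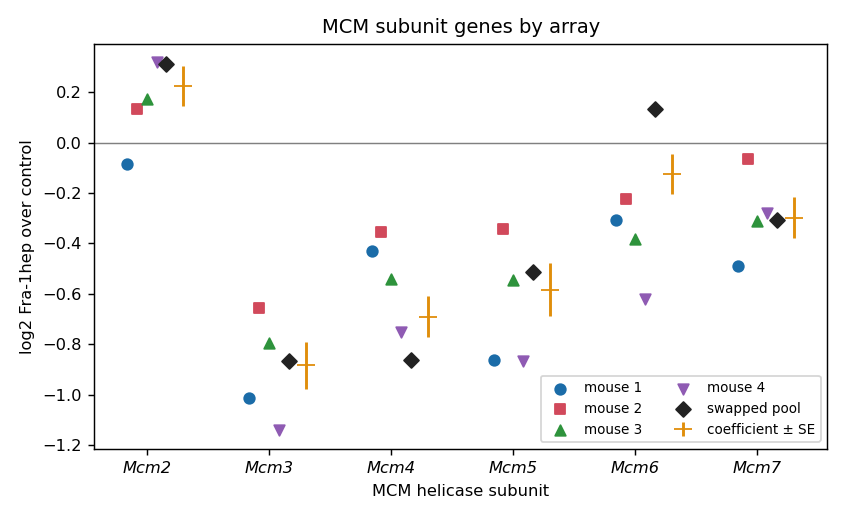
Log2 ratio of Fra-1hep over control (y axis) for the 6 MCM subunit genes (x axis), with a point for each of the 5 arrays and orange bars for the genotype coefficient ± its standard error. Mcm3, Mcm4, Mcm5 and Mcm7 lie below 0 on all 5 arrays, Mcm6 lies below 0 in the 4 mice alone, and Mcm2 lies above 0 on 4 arrays.

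MCM genes are textbook E2F targets, so the stretches before their starts are shown for MCM genes with different values and for Cdk1, the mitotic kinase gene described below. RefSeq promoter windows of the GRCm38.p6 build, which run from 250 bases before a start to 50 after it, were found for 32 of the 40 members, Mcm2, Mcm3, Mcm5, Mcm6 and Mcm7 among them. The letters TTTCCCGC, TTTCGCGC, TTTGCCGC and TTTGGCGC, which spell the E2F site, were searched on both strands, and overlapping matches were counted. Each stretch below runs from 180 to 31 bases before the start on the gene's strand, with matches in capitals. Mcm7 had a further window, chr5:138171217-138171516, which held no match to the E2F letters. The stretch shown for Mcm7 is from its window with matches, so it does not stand for every start of the gene.
Mcm2 (chr6:88898811-88898960, minus strand): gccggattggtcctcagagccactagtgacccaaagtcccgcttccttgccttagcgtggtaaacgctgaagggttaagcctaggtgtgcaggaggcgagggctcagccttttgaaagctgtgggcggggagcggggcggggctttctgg
Mcm5 (chr8:75109329-75109478, plus strand): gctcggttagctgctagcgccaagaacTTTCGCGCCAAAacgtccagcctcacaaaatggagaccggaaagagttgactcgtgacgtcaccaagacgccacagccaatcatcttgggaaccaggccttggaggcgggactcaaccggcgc
Mcm6 (chr1:128359736-128359885, minus strand): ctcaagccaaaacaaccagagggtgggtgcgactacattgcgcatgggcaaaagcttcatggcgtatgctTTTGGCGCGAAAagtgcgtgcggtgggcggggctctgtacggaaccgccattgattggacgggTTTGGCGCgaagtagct
Mcm7 (chr5:138171914-138172063, minus strand): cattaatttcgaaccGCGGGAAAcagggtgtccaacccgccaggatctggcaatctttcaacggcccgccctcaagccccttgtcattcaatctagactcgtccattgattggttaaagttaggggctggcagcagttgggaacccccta
Cdk1 (chr10:69352943-69353092, minus strand): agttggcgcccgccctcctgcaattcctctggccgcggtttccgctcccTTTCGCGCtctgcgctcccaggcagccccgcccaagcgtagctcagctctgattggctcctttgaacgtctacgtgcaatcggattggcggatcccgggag

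These E2F letters occurred in the windows of 8 of the 32 members and in 2.26% of all 32851 windows. The members were Cdc6, Cdk1, Cdk2, Cdt1, Mcm3, Mcm5, Mcm6 and Mcm7. Of them, Mcm3, Mcm5, Mcm7 and Cdk1 fell, Cdk2, Cdt1 and Mcm6 did not pass, and Cdc6 was not tested. The stretch of Mcm5 held 2 overlapping matches and that of Mcm6 held 3. The AP-1 letters TGAGTCA and TGACTCA occurred in 0 of the 32 members' windows and in 5.20% of all windows. The CHR letters TTTGAA and TTCGAA, an element of mitotic promoters, occurred in 13 members and 19.2% of all windows. For each motif, a member counted if any of its windows held a match, while the background share is over windows. These measures differ in unit. A match describes the letters in its window and no more.

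The other licensing factors did not pass or were not tested. Cdt1, which loads the helicase, had a coefficient of 0.17 ± 0.07 that did not pass (limma adjusted p = 0.0998). Gmnn encodes geminin, the inhibitor of Cdt1. Its ratios were 0.00, 0.42, 0.26 and 0.09 in mice 1 to 4, and -0.45 on the swapped array. The mouse arrays and the swapped array thus lay on opposite sides of 0, with a fitted dye term of 0.32. The coefficient of -0.13 ± 0.08 did not pass. Cdc6, another loading factor, rose above the background in Fra-1hep RNA on 2 arrays at 1 probe and on 0 at the other, and it was not tested.

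The subunits of ribonucleotide reductase, the enzyme that makes deoxyribonucleotides, went opposite ways. Rrm1, the large subunit, had ratios of -0.64, -0.43, -0.53 and -0.61 in mice 1 to 4, and -0.20 on the swapped array. It fell by 0.38 (SE 0.06, 1.30-fold, limma adjusted p = 0.0058) and stayed past the threshold in all 16 alternatives. Rrm2, the small subunit, whose level follows S phase, had ratios of 0.38, 0.11, 0.57 and 0.66 in mice 1 to 4, and 0.35 on the swapped array. Rrm2 was thus above 0 and Rrm1 below 0 on all 5 arrays.

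Rrm2 rose by 0.39 ± 0.10 (1.31-fold, limma adjusted p = 0.031). Its adjusted p was 0.064 without mouse 3 and 0.054 without mouse 4, and ran from 0.0073 to 0.097 over 16 alternatives. Tyms, thymidylate synthase, lay at 0.10 ± 0.05 and did not pass. Pcna, the sliding clamp of DNA polymerases, was below 0 on all 5 arrays, from -0.56 in mouse 1 to -0.13 in mouse 2. Its coefficient of -0.23 ± 0.09 did not pass (limma adjusted p = 0.0997), and without the swapped array it lay at -0.31 (limma adjusted p = 0.022).

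Mitosis genes were the ones most often under the filter. Of 14, Aurkb, Bub1 and Top2a did not reach the filter. Aurkb was above background on 0 arrays in either channel, and Bub1 in the control channel of 1 array. Top2a, the topoisomerase that untangles sister chromatids, had a signal above background on 1 array for Fra-1hep and on 2 for control. Without these genes, 8 of the remaining 11 were above background in the Fra-1hep channel on all 5 arrays and 9 in the control channel. Bub1b, a spindle checkpoint kinase gene, had a signal above background on 1 array for Fra-1hep and on 4 for control. It lay at -0.16 ± 0.08 and did not pass, while with processed signals it lay at -1.08 (limma adjusted p = 0.047).

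Cdk1, the kinase of mitotic entry, was above background in the control channel on 4 arrays and in the Fra-1hep channel on 0. Its ratios were -0.48, -0.18, -0.25 and -0.05 in mice 1 to 4, and -0.38 on the swapped array. All were below 0. Cdk1 was lower (limma adjusted p = 0.033), but the size of the change was not measured, because the Fra-1hep channel was not above background. Cdk1 entered the test through the control channel alone, where it was brighter. After normalization between arrays, mean log2 levels were 6.36 in Fra-1hep and 6.63 in control, or 1.21-fold lower in Fra-1hep. The Fra-1hep side is the probe's own signal, which was no dimmer than the dimmest probe well above background. The 1.21-fold value is thus the plain ratio of the levels and no lower limit, and it is open to dye bias. With processed signals the coefficient was -2.06, which is no measured size because the Fra-1hep channel was not above background. Without mouse 3 the adjusted p was 0.068 (range over 15 alternatives 0.0061 to 0.10). The other Cdk1 probes were near background and were not tested. The brighter of these had ratios of 0.20, 0.19, 0.06 and 0.29 in mice 1 to 4, and 0.03 on the swapped array. These ratios were above 0, with the Fra-1hep channel above background on 1 array and the control channel on 0. The dimmer probe had ratios of -0.24, -0.12, -0.03 and 0.06 in mice 1 to 4, and -0.02 on the swapped array. The lower call of Cdk1 thus rests on the probe used.

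Birc5, which encodes survivin of the chromosomal passenger complex, had ratios of -0.79, -0.06, -0.90 and -0.63 in mice 1 to 4, and -0.67 on the swapped array. Mouse 2 stood near 0 and the other arrays were low. Birc5 fell by 0.63 (SE 0.15, 1.55-fold, limma adjusted p = 0.020) at its brightest probe. A second probe, annotated to another transcript of the gene, lay at -0.07, and the mean of the kept probes was -0.35 with an adjusted p of 0.080 (range over 16 alternatives 0.0012 to 0.080).

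Mki67, the proliferation marker Ki-67, had ratios of -0.51, 0.18, -0.63 and -0.71 in mice 1 to 4, and -0.08 on the swapped array. Mouse 2 was above 0 and the other mice were well below. The coefficient of -0.25 ± 0.16 did not pass (limma adjusted p = 0.28), and its second probe gave -0.24. Without mouse 2 it was -0.35 (limma adjusted p = 0.012), and without the swapped array -0.42.

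Ccna2, the cyclin of S phase and G2, had ratios of -0.70, 0.16, -0.10 and -0.49 in mice 1 to 4, and -0.33 on the swapped array, and its coefficient of -0.31 ± 0.15 did not pass (limma adjusted p = 0.18). Cenpa, the centromeric histone, had ratios of -0.37, 0.19, -0.18 and -0.59 in mice 1 to 4, and -0.17 on the swapped array, and its coefficient of -0.20 ± 0.13 did not pass. In these genes too, mouse 2 was the one array above 0.

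The B-type cyclins Ccnb1 (-0.09 ± 0.07) and Ccnb2 (-0.18 ± 0.08), the kinases Aurka (-0.04 ± 0.08) and Plk1 (0.05 ± 0.09), and Cdc20 (-0.22 ± 0.10), an activator of the anaphase-promoting complex, did not pass. Without the swapped array, Ccnb1 lay at -0.27 (limma adjusted p = 0.020) and Cdc20 at -0.27 (limma adjusted p = 0.048). With processed signals Cdc20 lay at -0.39 and Ccna2 at -0.51.

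The mice differed most in the mitosis genes. The median over the 11 tested mitosis members was -0.37, 0.05, -0.18 and -0.38 in mice 1 to 4, and -0.16 on the swapped array. Mouse 2 had 5 of 11 below 0, whereas mice 1 and 3 had all 11 below 0 and mouse 4 had 10. The standard deviation of these medians over the 4 mice was 0.20, beside 0.12 for replication members and 0.09 for G1 members. Mouse 2 had the highest median of the 4 mice in the other roles too, at -0.11 for G1 and -0.10 for replication.

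Markers of other liver cell types were read on the same arrays, where 15.4% of all features fell and 11.2% rose. Of 9 neutrophil markers tested, 8 rose, and their median ratio was 1.69, 3.07, 1.46 and 1.78 in mice 1 to 4, and 2.43 on the swapped array, highest in mouse 2. Their summed normalized intensity ran from 20052 to 59029 in the Fra-1hep channel and from 5472 to 6171 in the control channel. Mpo, made by neutrophil precursors, was at 3.54 in mouse 2 and at 2.19 to 2.73 in the other mice. It had the largest coefficient of the neutrophil markers, at 2.74. The smallest were those of Prtn3, at 0.61, and Elane, at 0.26, which did not pass (limma adjusted p = 0.11). Of 11 macrophage markers, 7 fell and 0 rose. Their median was -0.90, -0.31, -0.90 and -1.14 in mice 1 to 4, and -0.70 on the swapped array, least low in mouse 2. The summed intensity ran from 33938 to 59766 in Fra-1hep and from 61505 to 73657 in control. Itgam, counted as fallen, was above 0 in all 4 mice and at -0.57 on the swapped array. Of the 4 that did not pass, Clec4f and Vsig4 lay at 0.07 and 0.05, and Csf1r and Lyz2 at -0.54 and -0.36.

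Of 8 stellate cell and matrix markers, 6 fell and 0 rose, with a median of -0.83, and their summed intensity ran from 15507 to 19823 in Fra-1hep and from 33503 to 43620 in control. Of 8 endothelial markers, 4 fell and 0 rose, with a median of -0.37, and of 8 lymphocyte markers 4 fell and 0 rose, with a median of -0.21. Of 6 cholangiocyte markers, 0 passed, with a median of -0.43 in mouse 2 and of 0.10 to 0.48 in the other mice. Of 6 erythroid markers, 1 fell and 1 rose, with a median of 0.03. Hemgn, counted as risen, was at 0.92 to 1.06 in the mice and at -0.55 on the swapped array. No neutrophil, macrophage, stellate or endothelial marker with a probe was under the filter, and of the lymphocyte markers Cd79a and Ncr1 were. The part of these cell types in the values of the cell cycle genes was not tested.

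**Figure D3:**
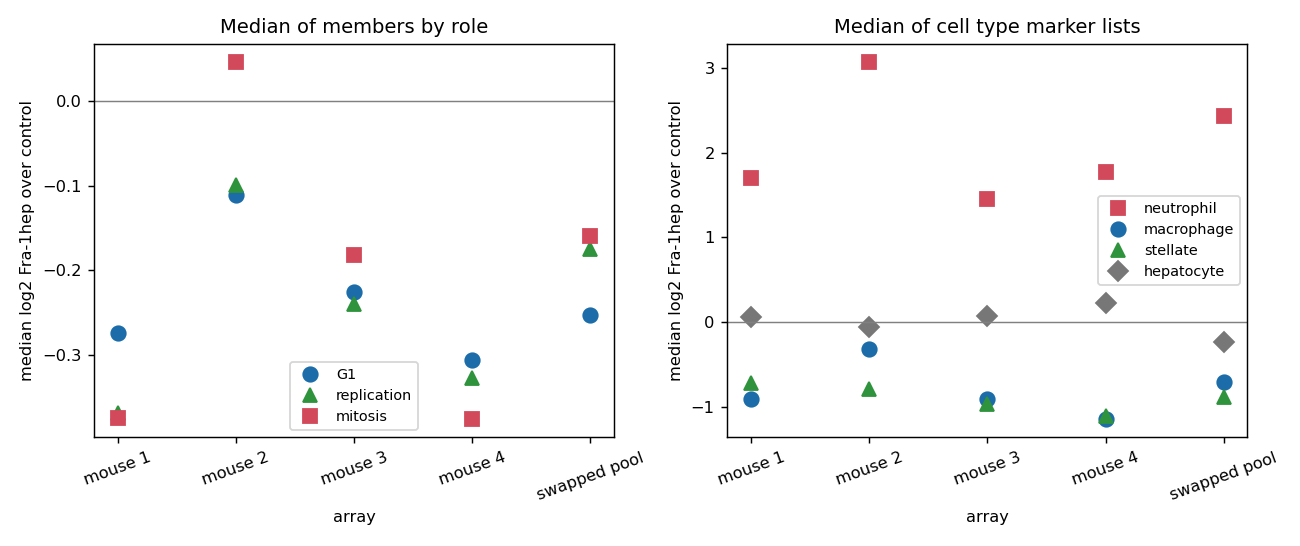
Median log2 ratio of Fra-1hep over control (y axis) on each of the 5 arrays (x axis), left for cell cycle members by role and right for markers of neutrophils, macrophages, stellate cells and hepatocytes. Mouse 2 has the highest median of the 4 mice in all 3 roles (0.05 for mitosis), the highest neutrophil median (3.07) and the least low macrophage median (-0.31).

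Further genes of the same pathways were taken from lists made by role, and their counts stand beside 15.4% of all features lower and 11.2% higher. Of 27 other G1 genes tested, 9 fell, 1 rose and 17 did not pass, with a median of -0.12. The named genes below had the smallest p-values in their list. Ccng1, a cyclin-like p53 target, fell by 0.68 (SE 0.07), and Rbl1, the retinoblastoma relative p107, by 0.47 (SE 0.06), though it lay at -0.82 with processed signals. Cdkn1a, which encodes the inhibitor p21, fell by 1.23 (SE 0.20, 2.34-fold, limma adjusted p = 0.0059), with ratios of -1.64, -1.63, -1.20 and -0.52 in mice 1 to 4, and -1.20 on the swapped array. E2f3, another activating E2F, fell by 0.51 (SE 0.09), and without the swapped array it lay at -0.21 with an adjusted p of 0.071.

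Of the other replication genes tested, 15 of 41 fell, where 3321 of all 21546 features fell (15.4%). In the other direction, 2 of 41 rose, where 2411 of all features rose (11.2%). The remaining 24 did not pass, and the median of the list was -0.15. The initiation factor gene Mcm10 fell by 0.61 (SE 0.10), the origin recognition subunit Orc6 by 0.43 (SE 0.05) and the primase subunit Prim1 by 0.43 (SE 0.07). Pola1, the catalytic subunit of DNA polymerase alpha, with which primase forms a complex, rose by 0.52 ± 0.07 and was above 0 on all 5 arrays. With processed signals it lay at 0.79.

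Of 32 other mitosis genes tested, 11 fell (beside 15.4% of all features), 1 rose (beside 11.2% of all features) and 20 did not pass, with a median of -0.15, and 17 more were near background. Spc25, a subunit of the NDC80 kinetochore complex, fell by 1.75 (SE 0.15, 3.36-fold), with ratios of -2.04, -1.34, -1.27 and -1.89 in mice 1 to 4, and -1.86 on the swapped array. Its partner in the complex, Spc24, named here after its value was seen, fell by 0.21 (SE 0.05, limma adjusted p = 0.024). The checkpoint gene Mad2l1 fell by 0.43 (SE 0.06) and the condensin gene Smc2 by 0.36 (SE 0.07), while Cks2, a Cdk-binding protein gene, rose by 0.50 ± 0.08, and lay at 0.82 without the swapped array. With the mean of all kept probes Mad2l1 lay at -0.28, and with processed signals Smc2 lay at -0.66.

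Leaving aside the test against a minimum change, 7 of the 15 members that passed stayed past the threshold in every alternative that could be run on them: Ccnd1, Ccne1, E2f8, Mcm3, Mcm4, Mcm5 and Rrm1, all lower. These were also the 7 lower members that passed when the standard errors were enlarged for an assumed spread among 5 control mice. That spread could not be measured in 1 pool and was taken to equal the residual variance of the fit. In this setting 8.18% of all features were lower and 5.02% higher. Against a minimum change of 1.2-fold, Ccnd1, Mcm3 and Mcm4 passed, while 3.32% of all features were lower and 1.53% higher. Where both channels had to be above background on all arrays, which left out Cdk1 and E2f8, 11 of 30 members were lower, beside 17.2% of 18187 features, and 2 higher, beside 12.9%. Without the swapped array 17 members were lower, beside 18.9% of features, and 3 higher, beside 16.9%. Dye bias is left in these counts. Leaving out mouse 1, 2, 3 or 4 gave 11, 14, 8 and 10 lower members in that order, beside 14.7%, 15.2%, 12.1% and 12.0% of features.

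**Figure D4:**
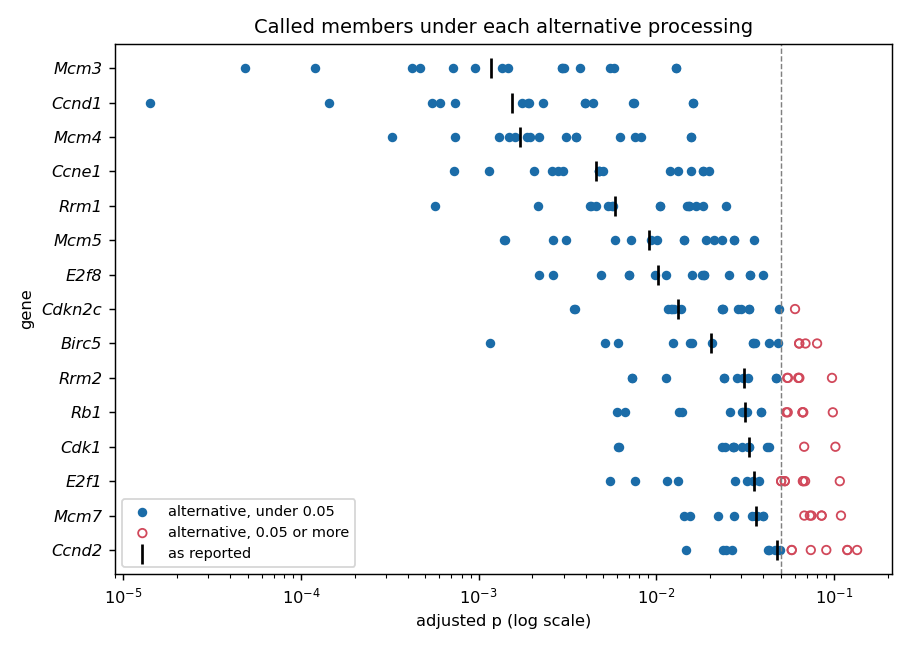
Adjusted p (x axis, log scale) of the 15 members that passed (y axis), as reported (black bar) and in each alternative analysis (filled, under 0.05; open, 0.05 or more), with a dashed line at 0.05. From Mcm3 down to E2f8, 7 genes stay left of the line throughout, and the other 8 cross it in at least 1 alternative.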

How the data were processed

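The authors read spot intensities from the 5 two-colour arrays with Feature Extraction of Agilent (10.7 in the submitters' processing notes, 10.7.3.1 in the file headers). Deposited per spot, per the file headers, are raw median intensities, local backgrounds, processed intensities after the software's background subtraction and dye normalization, the log10 of Cy5 over Cy3, and flags. The authors' deposited series table gives log2 values. Against the scanner ratios its slopes were 1.00 on the mouse arrays and -1.00 on the swapped one, so its direction is Fra-1hep over control. Its column medians ran from -0.04 to 0.13. Values fitted from it nearly equalled those from the processed intensities (Ccnd1 at -1.06 with each), so these alternatives largely repeat each other. Any further steps behind the deposited table are unknown.

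Raw intensities were corrected with normexp (offset 50) and normalized by loess within arrays, with control spots and 189 outlier spots at weight 0, and 0 spots were saturated. Of 55681 probes, 26056 were named through the RefSeq table of GRCm38.p6. The filter kept 28132 probes, and each gene was represented by its brightest one. limma 3.58.1 in R 4.3.3 fitted a genotype and a dye term (3 residual and 4.00 prior degrees of freedom). The fit was tested on simulated data. The members and lists were chosen with earlier results of these data known. Ratios on every array are given for members that passed and for some that did not, and up to 4 genes with the smallest p are named per other list. Alternatives changed the swapped array, dye term, background correction, normalization, filter, probes per gene, weights, slide, control spread, minimum change and mice.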

Additional observations from a re-analysis of the deposited data

Results flagged for a closer look

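Ccnd2 stood out in mouse 4, where its ratio was -0.73 while the other mice lay between -0.27 and -0.19. The gap to the next mouse was 0.864 of the whole range of the 4 mice, above the critical value of Dixon's test. This test was run on 35 genes, and chance alone marks about 1 in 20 groups. Without mouse 4 Ccnd2 still passed.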

How the results depend on the processing

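Past the threshold were 13 lower and 2 higher members and 5732 features. These counts were 7, 1 and 2844 with the assumed control spread added, and 3, 0 and 1046 against a minimum change of 1.2-fold. The higher members numbered 1 with an offset of 0 and 1 under median centring. Without a filter on dim probes the median of G1 members was -0.15, now with Ccne2. Leaving out each mouse in turn gave 8 to 14 lower members, 1 to 3 higher members and 4286 to 5492 features; the lowest counts of lower members were those without mouse 3 (8) and mouse 4 (10). Leaving out mouse 1 is also the analysis within the larger slide. No member changed direction in any alternative while past the threshold. Alternatives lifted 8 members that had not passed over the threshold. Of these, Ccnb1, Cdk6 and Mcm6 passed only without the swapped array, where dye bias is left in. No paired analysis was possible because the only array outside the mouse group is 1 pool, whose number merely names it, and each array already sets Fra-1hep against control RNA. Dim probes limit the mitosis genes most.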

Other observations

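Checkpoint and DNA damage genes, which halt the cycle, were tested as a further list. Of the 18 genes, 6 were lower, beside 15.4% of all features, 2 were higher, beside 11.2% of all features, and 10 missed the threshold, with a median of -0.11. The stress-response gene Gadd45b fell by 0.69 (SE 0.09, limma adjusted p = 0.0022), the kinase gene Plk2 by 0.46 (SE 0.07) and Pkmyt1, which encodes an inhibitory kinase of Cdk1, by 0.38 (SE 0.07). Without the swapped array Pkmyt1 lay at -0.22, and with processed signals Plk2 lay at -0.87. Wee1, the other kinase that holds Cdk1 inactive, rose by 0.34 ± 0.06, with the mice from 0.05 to 0.23 and the swapped pool at 0.54. Without the swapped array Wee1 lay at 0.15 with an adjusted p of 0.067, and with all arrays turned and no dye term its adjusted p was 0.058. Chosen after its value was seen, Gadd45g had ratios of -2.50, -0.60, -1.27 and -1.93 in mice 1 to 4, and -1.10 on the swapped array, a fall of 1.34 (SE 0.31, limma adjusted p = 0.020). Trp53 and Mdm2, also chosen after their values were seen, lay at -0.05 ± 0.05 and -0.02 ± 0.06 and did not pass.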
